A study of Mus musculus with 12 samples.

Results

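Liver RNA from 12 C57BL/6 mice was sequenced, and the transcripts of 10 genes that carry or brake the response to interleukin-6 (IL-6), STAT3 and NF-kB were examined. The genes were taken by symbol, and each of the 10 had a row among the 41128 genes of the table. They were the receptor subunits Il6ra and Il6st, the transcription factors Stat3, Cebpb and Cebpd, the inhibitors Socs3, Nfkbia and Tnfaip3, and the nuclear cofactors Nfkbiz and Bcl3. All mice were born germ-free and shared litters until weaning at about 21 days. Germ-free (GF) mice then stayed in sterile isolators, whereas conventionalized (CV) littermates spent 3 weeks in cages with used bedding from the animal facility. Livers were taken at 6 weeks of age from 3 males and 3 females of each condition, giving 4 groups of 3 libraries. The CV mice therefore differed from the GF mice in housing as well as in microbes, and both differences cannot be told apart here. The labels gave the mice no transgene or drug.

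IL-6 binds the receptor encoded by Il6ra, which signals through gp130, the product of Il6st. Janus kinases on gp130 then phosphorylate STAT3, which enters the nucleus and, in hepatocytes, drives the acute phase proteins together with C/EBP beta and C/EBP delta. STAT3 also induces Socs3, whose protein shuts the receptor complex down. NF-kB is held in the cytoplasm by IkB alpha, the product of Nfkbia, and is released when IkB alpha is degraded. Nfkbiz and Bcl3 encode IkB-like proteins that act in the nucleus on chosen NF-kB targets, and A20, the product of Tnfaip3, removes the ubiquitin chains that relay the signal. Nfkbia, Tnfaip3, Nfkbiz and Bcl3 are themselves known NF-kB targets, so the transcripts of this pathway serve as both parts and readouts of it.

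To show where such binding motifs lie in these genes, the RefSeq promoter windows of the members were searched on both strands. A window covers 250 bases before to 50 bases after an annotated start (build GRCm38.p6), and 8 of the 10 members had at least 1. The 4 windows with a match are printed below 5′ to 3′ on the strand of the gene, with the matches in capitals. The searched motifs were the STAT motif TTCNNNGAA, the C/EBP motif TTGCNNAA and the NF-kB consensus. Bcl3 lies at chr7:19822706-19823005, minus strand, and its match starts at base 3 of the transcript. Nfkbia lies at chr12:55492598-55492897, minus strand, with a match from base -29. The window of Tnfaip3 with matches lies at chr10:19015361-19015660, minus strand, and its matches start at -125 and -12. Socs3 lies at chr11:117969317-117969616, minus strand, with its match from -154.
Bcl3, NF-kB consensus: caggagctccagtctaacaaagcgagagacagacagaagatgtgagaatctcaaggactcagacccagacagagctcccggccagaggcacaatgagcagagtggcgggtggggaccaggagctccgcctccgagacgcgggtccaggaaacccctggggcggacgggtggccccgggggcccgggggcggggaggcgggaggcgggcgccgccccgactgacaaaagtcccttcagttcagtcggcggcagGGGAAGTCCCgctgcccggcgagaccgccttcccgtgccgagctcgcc
Nfkbia, NF-kB consensus: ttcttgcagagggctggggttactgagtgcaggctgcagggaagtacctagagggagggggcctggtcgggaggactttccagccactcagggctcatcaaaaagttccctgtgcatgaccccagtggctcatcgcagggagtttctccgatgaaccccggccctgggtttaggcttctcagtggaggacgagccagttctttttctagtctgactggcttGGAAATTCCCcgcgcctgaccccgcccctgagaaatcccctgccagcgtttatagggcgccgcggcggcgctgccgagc
Tnfaip3, NF-kB consensus: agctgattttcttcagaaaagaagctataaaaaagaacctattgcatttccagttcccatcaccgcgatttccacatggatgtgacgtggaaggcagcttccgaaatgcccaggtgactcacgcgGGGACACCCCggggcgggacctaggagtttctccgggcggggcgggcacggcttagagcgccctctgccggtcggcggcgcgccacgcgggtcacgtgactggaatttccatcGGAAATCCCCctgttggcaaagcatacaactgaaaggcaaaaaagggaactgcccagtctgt
Socs3, STAT motif: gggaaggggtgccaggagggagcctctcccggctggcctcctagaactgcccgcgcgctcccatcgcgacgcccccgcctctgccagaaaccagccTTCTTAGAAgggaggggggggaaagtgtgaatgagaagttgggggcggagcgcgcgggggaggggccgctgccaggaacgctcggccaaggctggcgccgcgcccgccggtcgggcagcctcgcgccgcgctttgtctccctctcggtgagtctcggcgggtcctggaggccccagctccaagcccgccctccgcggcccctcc

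The NF-kB consensus was thus found in 3 of the 8 members with a window, while 4.51% of 32851 windows of the same length held it. Members are counted here by gene and the shares by window, and Tnfaip3 had a further window without a match. The STAT motif was found in 1 of the 8, against 8.3% of all windows, and the C/EBP motif in 0 of the 8, against 10.8%. No printed window held matches to more than 1 of the 3 motifs. A match describes the letters of the window and no binding was measured. Of the 3 members with an NF-kB match, Bcl3 rose in CV livers, and Nfkbia and Tnfaip3 did not pass the test.

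Values are the deposited normalized reads, that is, reads of a gene divided by 1 size factor for the library. The libraries held from 5993619 to 10975691 reads in GF mice and from 8890529 to 15290835 in CV mice. Their make-up differed by condition. Mitochondrial ribosomal RNA took 9.36 to 16.4% of the reads in GF libraries and 1.39 to 6.32% in CV libraries, and 7 abundant loci that include it took 41.8 to 69.4% and 5.39 to 21.9%. Malat1, a nuclear noncoding RNA, ranged from 67082 to 106330 normalized reads in GF and from 1889 to 14370 in CV libraries. CV male 3 goes against its label, with 2382 normalized reads of Xist and 0 reads of the Y-linked genes, and the counts of members called and the male changes of Nfkbiz, Bcl3, Nfkbia and Il6ra are also given without it. The 10 hepatocyte markers were all expressed, with a sum of 116780 to 627140 normalized reads per library. Where the text says that a gene rose or fell, limma on log2(value + 1) gave an adjusted p-value under 0.05 over all 11782 genes with a mean of at least 10 normalized reads. All 10 members passed that minimum.

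The members differed widely in level. Per kilobase of annotated exon, Cebpb was highest with a mean of 892 normalized reads over the 12 libraries, followed by Nfkbia with 466.2. A middle tier held Stat3 with 71.0, Il6ra with 53.8, Bcl3 with 50.7 and Il6st with 44.7 normalized reads per kilobase. Cebpd had 28.5, Socs3 16.5, Nfkbiz 15.1 and Tnfaip3 2.18. The order within the middle tier was not fixed, because the group mean of Bcl3 per kilobase ran from 26.5 in GF females to 70.5 in CV females and that of Il6ra from 42.6 in CV males to 75.5 in GF females. Likewise, Nfkbiz lay above Socs3 in GF females (28.9 against 17.3 per kilobase) and below it in CV females (5.03 against 11.1). The depth behind these values was uneven. Tnfaip3 rested on 4 to 61 reads per library and Socs3 on 7 to 117, whereas Nfkbia had 282 to 1707.

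**Figure D1:**
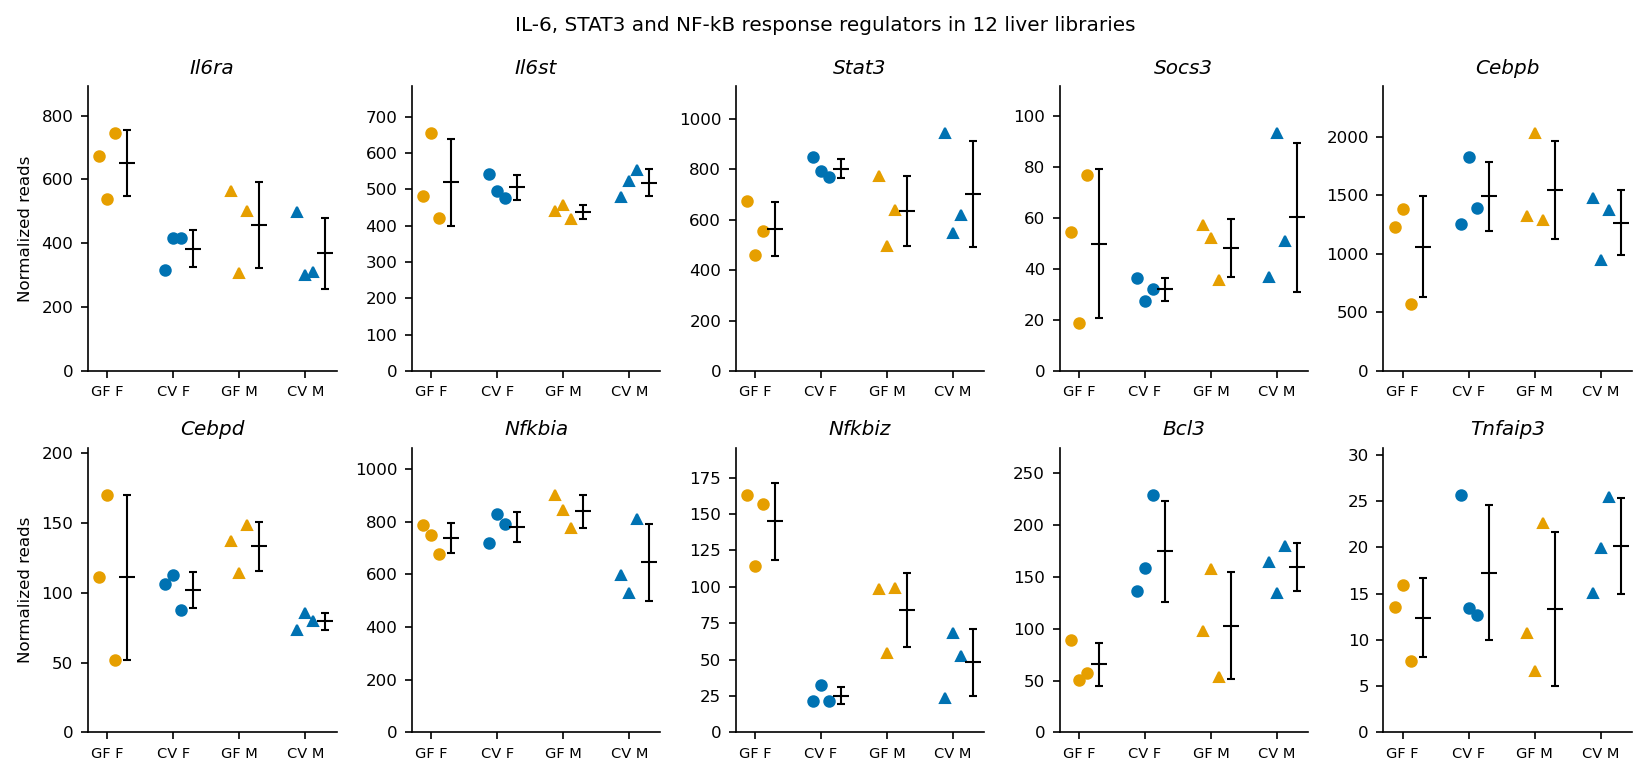
Normalized reads of the 10 members (vertical axis, linear from 0) in each of the 12 liver libraries, by condition and labelled sex. Symbols are single libraries and the black marks are the group mean ± SD of 3. Nfkbiz is at 114 or above in every GF female and at 32.2 or below in every CV female, and Bcl3 shows the opposite order.

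Most of the pathway's own regulators did not pass the test between GF and CV livers. Over both sexes, 3 of the 10 members were called, 1 higher and 2 lower in CV, while 61.1% of all tested genes were called (32.3% higher and 28.7% lower). Bcl3 rose 2.11-fold, Nfkbiz fell 3.19-fold and Il6ra fell 1.45-fold. The median change of the 10 members was 0.01 on the log2 scale, beside 0.07 over all genes. In females the same 3 members were called, against 55.8% of all genes (29.8% higher and 26% lower). In males 0 of 10 were called by limma, against 29.5% of all genes (14.1% higher and 15.4% lower), and edgeR and DESeq2 on the recovered reads called 0 as well. Of the 10, 3 had an unadjusted p under 0.05 in males, namely Nfkbiz, Cebpd and Bcl3. With CV male 3 left out, limma called 3 members in females (56.1% of all genes), 0 in males (25.2%) and 2 over both sexes (60.2%), where the call of Il6ra was lost. Since whole livers were sequenced, fewer cells of a type and less RNA per cell cannot be told apart in any of these changes.

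**Figure D2:**
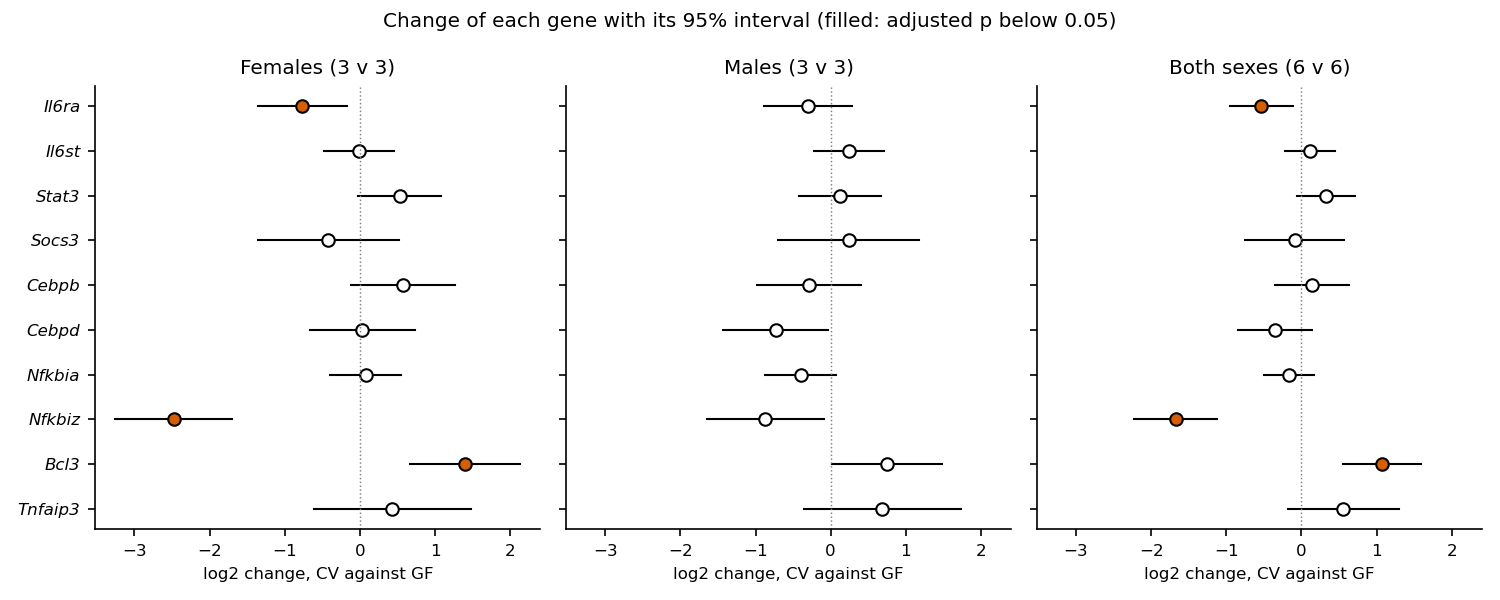
Log2 change of each member in CV against GF livers (horizontal axis) in females, in males and over both sexes, with its 95% interval from limma. Filled circles have an adjusted p under 0.05. Nfkbiz, Bcl3 and Il6ra are filled in females and over both sexes, and no member is filled in males.

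Nfkbiz showed the largest change among the members. It encodes IkB zeta, which NF-kB and IL-1 signals induce and which is needed for a subset of late NF-kB targets. The gene lies on chromosome 16 from 55811375 to 55838899 on the minus strand of GRCm38. In females, normalized reads of Nfkbiz were 163, 114 and 157 in GF livers and 21.9, 32.2 and 21.7 in CV livers. The groups did not overlap, and Nfkbiz fell 5.58-fold (log2 change -2.48 ± 0.37, SE, n = 3 against 3, limma adjusted p = 5.31e-05). In males the values of Nfkbiz were 98.5, 54.6 and 99.2 in GF and 23.4, 68.4 and 52.7 in CV livers. Here the groups overlapped through GF male 2 and CV male 2, and the change of -0.87 ± 0.37 did not pass (limma adjusted p = 0.084). It passed without GF male 2 (-1.15, limma adjusted p = 0.0352) and without CV male 2 (-1.18, limma adjusted p = 0.0343). The male change was -0.43 without CV male 1 (limma adjusted p = 0.354), -0.73 without GF male 1 (0.242) or GF male 3 (0.232), and -0.997 with CV male 3 left out (0.085). Over both sexes the change was -1.67 ± 0.26 (limma adjusted p = 4.71e-05). Leaving out the library labelled CV male 3 gave -1.74. The male change was smaller in size by 1.61 ± 0.52 on the log2 scale, which gave an unadjusted p of 0.00659 in limma and an adjusted p of 0.417. Without CV male 1 this difference was 2.05 (limma adjusted p = 0.0338).

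Within the CV livers, Nfkbiz was highest in males 2 and 3, the 2 CV libraries with the highest mitochondrial ribosomal RNA shares (5.89 and 6.32%). The other 4 CV libraries lay between 21.7 and 32.2 normalized reads of Nfkbiz, with shares of 1.39 to 1.81%. With the log2 share of mitochondrial ribosomal RNA as a covariate, the change of Nfkbiz over both sexes was -0.30 (limma adjusted p = 0.736) and 0 of the 10 members were called. That fit called 1.18% of all genes over both sexes and 0.0255% in females. Since every GF library had a higher share than every CV library, this share and the condition cannot be told apart between the groups. As raw reads, which do not correct for depth, Nfkbiz had 41 to 110 reads in GF and 36 to 86 in CV libraries.

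**Figure D3:**
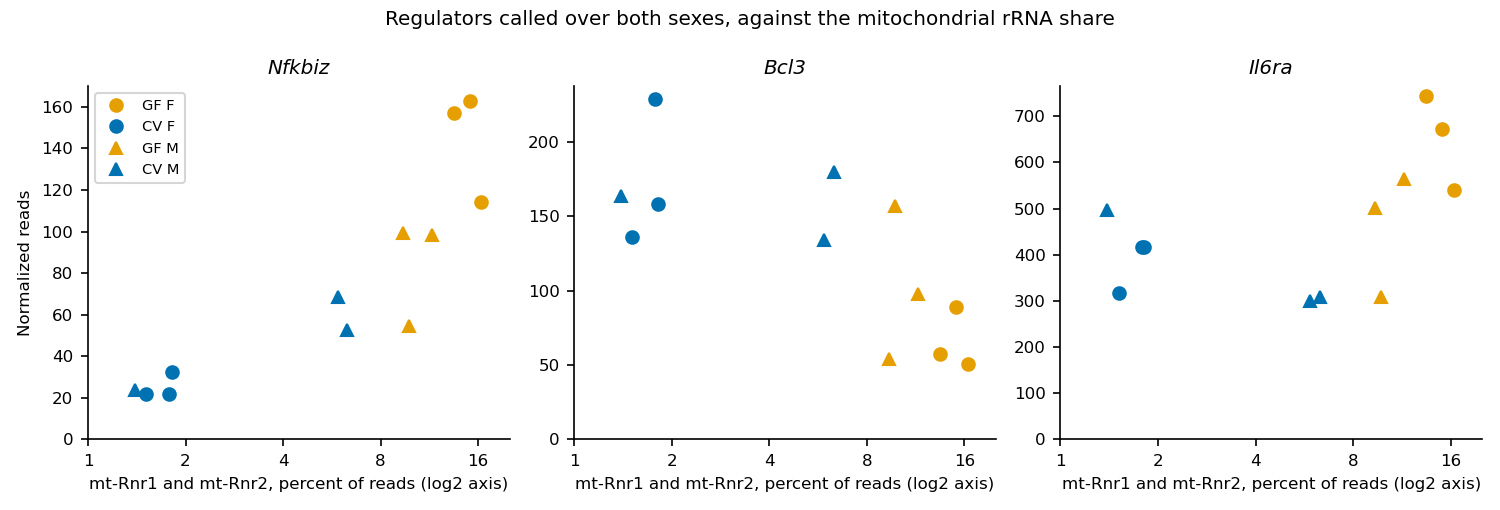
Normalized reads of Nfkbiz, Bcl3 and Il6ra (vertical axes, linear from 0) against the percent of reads from mt-Rnr1 and mt-Rnr2 (horizontal axis, log2 scale) in 12 libraries. GF libraries lie at 9.36% or above and CV libraries at 6.32% or below, and the 2 CV libraries near 6% are CV males 2 and 3.

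Bcl3 moved the other way from Nfkbiz, although both encode nuclear IkB-like proteins. BCL3 binds the p50 and p52 subunits of NF-kB and can turn them into activators. The gene lies on chromosome 7 from 19808462 to 19822770 on the minus strand of GRCm38. Normalized reads of Bcl3 in females were 89.1, 50.5 and 57.5 in GF livers and 136, 159 and 229 in CV livers. The female groups did not overlap, and Bcl3 rose 2.64-fold (log2 change 1.40 ± 0.35, SE, limma adjusted p = 0.00272). In males the values of Bcl3 were 97.6, 157 and 53.9 in GF and 164, 134 and 179.9 in CV livers. GF male 2 lay above CV male 2, and the change of 0.75 ± 0.35 did not pass (limma adjusted p = 0.113). Without GF male 2 the change of Bcl3 in males was 1.11 and passed (limma adjusted p = 0.0216), whereas it was 0.35 without GF male 3 (0.476) and 0.65 with CV male 3 left out (0.227). Over both sexes Bcl3 rose by 1.07 ± 0.24 (limma adjusted p = 0.00123). Leaving out the library labelled CV male 3 gave 1.03. Scaled to the reads outside the abundant loci, the female change was 0.79 and missed the threshold (limma adjusted p = 0.0672). Exons of Bcl3 share 161 bases with an antisense gene that averaged 0.554 normalized reads.

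Nfkbia and Tnfaip3, whose products end NF-kB signals, were not called in either sex. Nfkbia had normalized reads of 788, 750.1 and 677 in GF females and 718, 828.9 and 791 in CV females, which overlapped. In males Nfkbia had 901, 842 and 775 in GF and 597, 529 and 809.5 in CV livers, with CV male 3 inside the GF range. The male change of Nfkbia with that library left out was -0.58 (limma adjusted p = 0.0942). The change of Nfkbia over both sexes was -0.16 on the log2 scale with a 95% interval from -0.50 to 0.17. Its sign depended on the scaling, with 0.40 when values were scaled to all reads and -0.62 when they were scaled to reads outside the abundant loci. Tnfaip3 ranged from 6.65 to 22.7 normalized reads in GF livers (median 12.2) and from 12.6 to 25.7 in CV livers (median 17.5). Its change of 0.56 over both sexes had a 95% interval from -0.18 to 1.30, wide enough at this depth to hold both no change and a doubling of its level.

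Of the receptor subunits, Il6ra fell and Il6st was not called. Normalized reads of Il6ra (chromosome 3, 89864059 to 89913196, minus strand) in females were 673, 540.0 and 744 in GF and 317, 416 and 417 in CV livers. The female groups did not overlap, and Il6ra fell 1.70-fold (log2 change -0.76 ± 0.28, SE, limma adjusted p = 0.0276). That female call was lost in 8 of 27 alternatives, among them TMM scaling (limma adjusted p = 0.063) and leaving out GF female 1 (0.0727), GF female 3 (0.0867) or CV female 1 (0.112). In males Il6ra had 563, 307 and 500.3 in GF and 497, 299.7 and 309 in CV livers. The male groups overlapped and the change was -0.30 ± 0.28 (limma adjusted p = 0.427), or -0.20 with CV male 3 left out (0.672). Over both sexes the change of -0.53 ± 0.20 passed narrowly (limma adjusted p = 0.0265). It did not pass without the library labelled CV male 3 (-0.48, limma adjusted p = 0.0592), and it reached 0.03 when values were scaled to all reads. After a trend on length and GC content had been removed it was -0.12 (limma adjusted p = 0.593). Exons of Il6ra share 242 bases with an antisense gene.

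Il6st, which encodes the signal chain shared by the IL-6 family, was not called as reported. In females Il6st had 483, 654 and 422 normalized reads in GF and 543, 496 and 477 in CV livers, with the CV values inside the GF range. In males the values of Il6st were 439.7, 456 and 419 in GF and 479, 525 and 554 in CV livers. The male groups did not overlap, as was the case for 43% of all genes in males and 64.9% in females, but the change of 0.24 ± 0.22 did not pass (limma adjusted p = 0.424). Over both sexes the change of Il6st was 0.11 with a 95% interval from -0.22 to 0.44. Removal of the length and GC trend moved it to 0.78 (limma adjusted p = 0.000466). Scaled to all reads, the female change of Il6st was 0.79 and passed (limma adjusted p = 0.00897). Scaled to reads outside the abundant loci, the female change was -0.64 and passed in the other direction (limma adjusted p = 0.0164). The median female change of all genes was 0.863 and -0.531 under these scalings.

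Stat3, the transcription factor at the end of the receptor pathway, did not pass between conditions. In females, normalized reads of Stat3 were 673, 460.2 and 556 in GF and 847, 791 and 771 in CV livers. Every CV female lay above every GF female, and the change was 0.53 ± 0.26 on the log2 scale (limma adjusted p = 0.0929). The same change passed when the spread was estimated without CV male 1 (limma adjusted p = 0.0454) or from the 6 female libraries alone (0.046). With TMM scaling it was 0.65 and passed (limma adjusted p = 0.0492). It also passed when scaled to all reads (1.34, limma adjusted p = 0.00141) and without the length and GC trend (1.11, 0.00119). Scaled to reads outside the abundant loci, the female change was -0.092 (limma adjusted p = 0.8). In males Stat3 had 773, 495 and 639 in GF and 942, 548 and 619 in CV livers, and these values overlapped. Over both sexes the change was 0.33 with a 95% interval from -0.06 to 0.71 (limma adjusted p = 0.13). It was 0.89 when scaled to all reads and -0.13 when scaled to reads outside the abundant loci. The phosphorylated protein, which carries the signal, was not measured.

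Socs3, the feedback inhibitor that STAT3 induces, spread widely within groups. Normalized reads of Socs3 in females were 54.3, 18.6 and 76.7 in GF and 36.6, 27.5 and 31.9 in CV livers. In males they were 57.3, 51.9 and 35.4 in GF and 37.0, 93.0 and 50.9 in CV livers. The CV females all lay inside the span of the GF females, and the male groups overlapped. In females the change of Socs3 was -0.42 ± 0.44 (limma adjusted p = 0.435), and it passed without GF female 2, the library with 7 reads (-0.999, limma adjusted p = 0.0325), whereas it was -0.0063 without GF female 3 (limma adjusted p = 0.991). The change over both sexes was -0.09 on the log2 scale with a 95% interval from -0.75 to 0.57.

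The C/EBP factors that work beside STAT3 at acute phase genes were not called either. Cebpb ranged from 569 to 2028 normalized reads in GF livers (median 1307) and from 948 to 1824 in CV livers (median 1382). Its change was 0.57 in females, -0.28 in males and 0.14 over both sexes, where the 95% interval ran from -0.35 to 0.64. Scaled to all reads, the female change of Cebpb was 1.38 and passed (limma adjusted p = 0.000864). Scaled to reads outside the abundant loci, it was -0.046 (limma adjusted p = 0.887). Cebpd had 112, 170.2 and 51.8 normalized reads in GF females and 106, 113 and 87.9 in CV females. In males Cebpd had 137, 114 and 149 in GF and 73.4, 85.9 and 79.9 in CV livers. The male groups of Cebpd did not overlap, and the change of -0.73 ± 0.33 had an unadjusted p of 0.042 and an adjusted p of 0.106 in limma. It passed when the spread was estimated without GF female 3 (limma adjusted p = 0.0315). In females the change of Cebpd was 0.83 and passed when scaled to all reads (limma adjusted p = 0.0418). Over both sexes the change of Cebpd was -0.35, and it passed with the same sign in 3 of 26 alternatives. Exons of Cebpb, Cebpd and Stat3 share 312, 562 and 72 bases with Tmem189, Spidr and Stat5a on the opposite strand, and the sources used here do not give whether reads were counted by strand.

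No sex difference was called in these genes. For the sex difference of the CV against GF change, limma called 0 of 10 members and 0% of all genes, with 1 member (Nfkbiz) and 1382 genes at an unadjusted p under 0.05, while edgeR called 0 genes and DESeq2 called 23, with 0 members among them. Between males and females over both conditions, 0 of 10 members were called against 1.16% of all genes, and 0 members had an unadjusted p under 0.05. The widest of the intervals for males against females was that of Tnfaip3, from -0.61 to 0.86 on the log2 scale. With CV male 3 left out, limma called 4 genes for the sex difference of the change and 203 genes between males and females, with 0 members in both.

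The directions above depend on how libraries were scaled, because the median change of all genes over both sexes moved from 0.07 to 0.62 when values were scaled to all reads and to -0.38 when they were scaled to reads outside the abundant loci. After subtraction of that median, the change of Nfkbiz was -1.75 under each of the 4 scalings compared, which also include TMM factors. Each scaling shifts all genes by nearly the same amount, so such near-equal values were fixed in advance and do not measure stability. That of Bcl3 ranged from 0.99 to 1.01 and that of Il6ra from -0.62 to -0.60. Stat3 ranged from 0.24 to 0.27 and Nfkbia from -0.25 to -0.22. Scaled to all reads, 5 members rose and 1 fell over both sexes, while 64% of all genes were called. Scaled to reads outside the abundant loci, 1 rose and 4 fell, beside 59.5% of all genes called. After removal of a trend on transcript length and GC content, 4 members rose (Il6st, Stat3, Bcl3 and Tnfaip3) and 3 fell (Cebpd, Nfkbia and Nfkbiz). That setting called 56.1% of all genes.

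**Figure D4:**
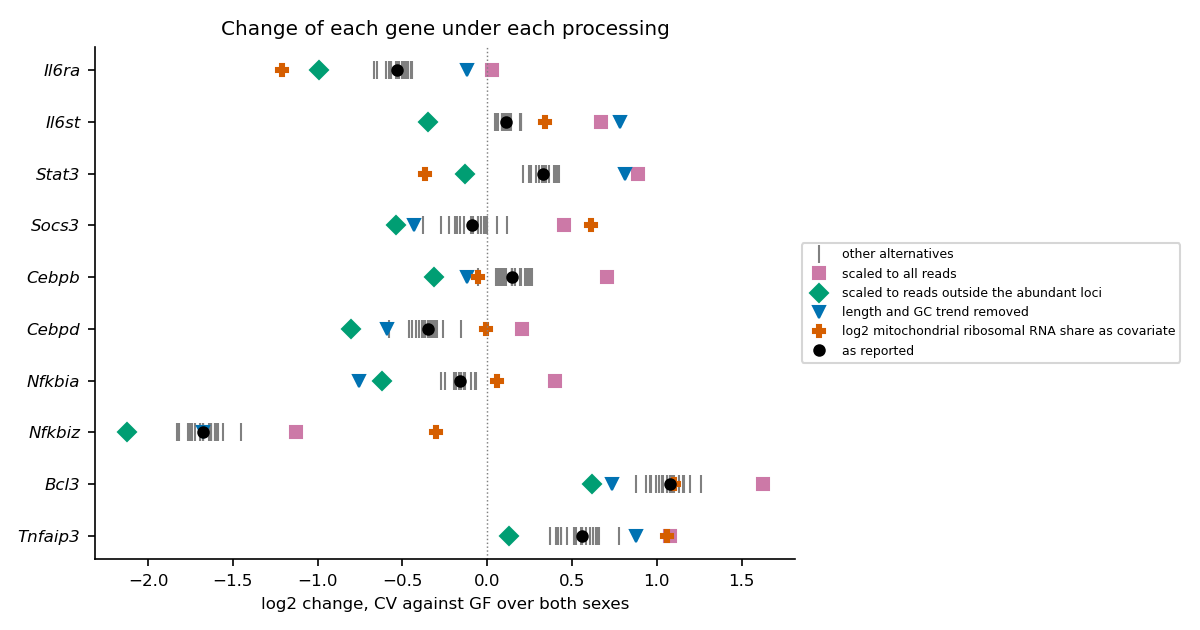
Log2 change of each member in CV against GF livers over both sexes (horizontal axis) as reported (black circles) and under the alternatives. Nfkbiz stays below 0 and Bcl3 and Tnfaip3 stay above 0 in all that were run, and the other 7 members lie on both sides of 0.

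Acute phase genes, many of which encode proteins that hepatocytes secrete under IL-6 and STAT3, were higher in CV livers as a group. The list also holds Mt1, Mt2, Steap4 and Cd14, which do not encode such secreted proteins. Of 29 tested, 23 rose and 0 fell over both sexes, with a median log2 change of 1.38. Among all tested genes 32.3% rose and 28.7% fell. In females 21 rose and in males 11 rose, beside 29.8% and 14.1% of all genes. With CV male 3 left out, 21 rose over both sexes and 7 in males. Fgg and Fga, which encode fibrinogen chains, rose by 2.31 ± 0.28 and 2.17 ± 0.32 (log2, SE), Hpx, the heme scavenger hemopexin, by 2.04 ± 0.31 and Crp by 1.80 ± 0.25. Their adjusted p-values in limma ranged from 5.49e-06 to 3.6e-05. Scaled to all reads, 27 of the listed acute phase genes rose. Scaled to reads outside the abundant loci 16 rose and 1 fell, whereas 0 were called with the ribosomal RNA share as covariate. Of 10 hepatocyte markers, which share Fgb with the acute phase list, 5 were higher and 0 lower. Their sum was 116780 to 479020 normalized reads in GF and 394060 to 627140 in CV libraries. The part of hepatocytes in the acute phase values was not tested.

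The ligands were at or near the limit of detection. Il6 had at most 1.42 normalized reads in any of the 12 libraries, Lif at most 0.795 and Il11 at most 1.33. Osm reached 2.39 and Tnf 4.53, and Il22 had 0 reads in all 12 libraries, which allows up to 3 reads per library. Because their means were under 10 normalized reads, these ligands were not tested, and a difference in them was not detectable at this depth.

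Among the other receptors and kinases of the IL-6 family, 9 of 24 tested genes fell and 1 rose over both sexes, with a median of -0.27. Of all tested genes 28.7% fell and 32.3% rose. Lifr, the receptor for leukemia inhibitory factor, fell by 1.61 ± 0.19 on the log2 scale (limma adjusted p = 4.46e-06). Socs4, Ptpn2 and Socs2, whose products dampen cytokine signals, fell by 1.17, 0.90 and 2.14 (limma adjusted p-values from 0.00021 to 0.00139). Il11ra1, the receptor for IL-11, rose by 0.92 ± 0.20 (limma adjusted p = 0.000883). Scaled to all reads, where the median of all genes was 0.62 and 64% of them were called, 8 of the 24 rose and 3 fell.

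Of the other NF-kB pathway genes, 13 of 37 tested fell and 6 rose, with a median of -0.10, beside 28.7% lower and 32.3% higher among all genes. Il1rn, which encodes the IL-1 receptor antagonist, rose by 2.27 ± 0.33 and Nfkbib, which encodes the cytoplasmic inhibitor IkB beta, by 1.54 ± 0.24. Tnfrsf1a, a TNF receptor, rose by 1.15 and Il1rap, the IL-1 receptor partner, by 0.84. The NF-kB subunits Rel and Nfkb1 fell by 1.90 ± 0.33 and 0.87 ± 0.16. Birc2, a ubiquitin ligase of the TNF receptor complex, fell by 1.65 and Il1r1, the IL-1 receptor, by 1.29. These 8 genes had adjusted p-values in limma from 1.61e-06 to 0.00175. Scaled to all reads, with the same shift of all genes and 64% of them called, 15 of the 37 rose and 5 fell.

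The remaining lists moved in both directions, beside 32.3% higher and 28.7% lower among all tested genes. Of 9 other liver transcription factors, 3 rose (Cebpa by 1.55, Foxa2 by 0.49 and Hnf4a by 0.44) and 2 fell (Ddit3 by 1.56 and Atf4 by 0.59). Of 23 immediate early and stress genes, 7 fell and 2 rose, with a median of -0.49. Gadd45g fell by 1.97, Klf2 by 0.91, Dusp1 by 0.72 and Zfp36, whose protein destabilizes cytokine mRNAs, by 0.62, while Junb rose by 0.64 and Jund by 0.50. Of 8 genes that glucocorticoids induce, Per1 fell by 1.81, Zbtb16 by 1.27 and Igfbp1 by 0.87, and Pck1 rose by 0.67. With the shift of all genes that scaling to all reads brings, 7 of the immediate early genes rose and 1 fell, while 64% of all genes were called.

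**Figure D5:**
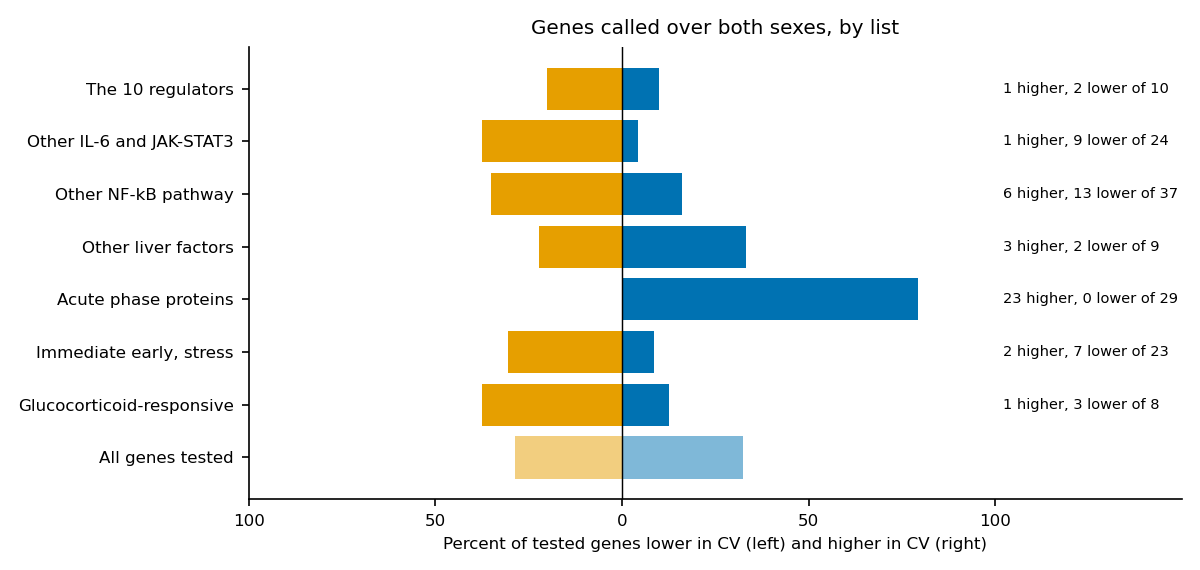
Percent of the tested genes of each list that were lower (left of 0) or higher (right of 0) in CV than in GF livers over both sexes, with counts at the right. The 10 members have 1 higher and 2 lower, the acute phase proteins 23 of 29 higher, and the pale bars show 32.3% higher and 28.7% lower among all genes tested.

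Markers of other cells that express these genes also differed between the conditions, beside 32.3% higher and 28.7% lower among all tested genes. Kupffer cell and macrophage markers were higher in CV livers, with 8 of 12 called and 0 lower, and summed to 1324 to 2926 normalized reads in GF and 2152 to 4860 in CV libraries. Lymphocyte markers were lower, with 6 of 7 tested called, and summed to 381 to 649 in GF and 98.4 to 173 in CV libraries. Erythroid markers were lower in 4 of 5 tested, with sums of 2783 to 32906 in GF and 916 to 3161 in CV libraries. Of 10 neutrophil markers 1 was tested and fell, with sums of 12.0 to 61.3 in GF and 5.2 to 32.5 in CV libraries. Endothelial markers had 1 of 8 higher and 1 lower, stellate cell markers 2 of 8 higher and 2 lower, and bile duct markers 0 of 5 called. No listed marker was at 0 in all libraries. The part of these cells in the changes of Nfkbiz, Bcl3 and Il6ra was not tested.

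After subtraction of the group means, pairs of members varied together in some cases and against each other in others. Pearson's r over the 12 libraries ranged from -0.67 for Socs3 and Cebpb to 0.81 for Il6ra and Stat3 among the 45 pairs, with a median of -0.02. Each library shares its depth and RNA make-up across genes, so these values are a description. The genes most like each member by the same measure, among 11002 with an established symbol, were Zfp219 for Il6ra (r = 0.955), Snx16 for Il6st (0.936), Gtf2h2 for Stat3 (0.954), Cep41 for Socs3 (0.972) and Hsd17b7 for Cebpb (0.98). They were Cx3cr1 for Cebpd (0.98), Prlr for Nfkbia (0.95), Hnrnph1 for Nfkbiz (0.956), Coa7 for Bcl3 (0.899) and Fam135a for Tnfaip3 (0.946). These are the highest of 11002 values each, over 12 libraries.

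Many of these transcripts are short-lived, and an AU-rich nonamer, TTATTTATT, marks a class of unstable mRNAs. The annotated 3′ untranslated regions of Nfkbia, Cebpd and Tnfaip3 held it, that is 3 of 10 members, beside 7.88% of 11204 tested genes with such a region. These regions had a median length of 1650.5 bases in the members and 1170 in the tested genes, and the nonamer shares were not corrected for length. The core ATTTA occurred 1.45 times per kilobase in the members and 1.82 times per kilobase in the tested genes. Over both sexes the 3 members with the nonamer were not called as reported. After removal of the length and GC trend Tnfaip3 rose and Cebpd and Nfkbia fell, where 56.1% of all genes were called. A link between the nonamer and the changes was not tested.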

How the data were processed

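Poly(A)-selected stranded libraries from 12 livers were sequenced once each, and groups were taken from the sample titles. The deposited unit is a normalized signal: the authors divided each gene's counts by 1 size factor per library, as the values show, since 100% were whole reads within 0.01 reads. The submitters' processing notes name HTSeq 0.6.1p1, DESeq2 and GRCm38. The aligner and annotation are not given in the sources used here. The paper named for the series describes another experiment and supplied no method. Gene models came from GENCODE (GRCm38), which listed 97.9% of the identifiers, and promoters from RefSeq.

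limma 3.58.1 (R 4.3.3) was fitted on log2(value + 1), which understates the change of low genes, to 11782 genes with a mean value of at least 10, with 4 group means and Benjamini-Hochberg adjustment at 0.05. Whole reads were tested with edgeR 4.0.16 (quasi-likelihood) and DESeq2 1.42.0. The functions were tested on simulated data. Replicate numbers share no stated litter, so p-values measure the spread between these libraries. The members and lists were chosen with earlier results of these data known. The text names every member, up to 4 called genes per list and direction by smallest adjusted p over both sexes, and the gene most like each member. Other scalings, filters, pseudocounts, covariates, tests and libraries left out gave 26 further settings, and 1 was added after seeing the data. Protein sequences were not used here.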

Additional observations from a re-analysis of the deposited data

Results flagged for a closer look

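In 20 groups of 6 libraries, each of 1 member in 1 condition, a single library stood apart in 2. For 6 values of the same normal distribution, chance alone does so in about 1 of 20 groups. Each group here pools both sexes, so that rate is only a guide. Il6st had 654.3 normalized reads in GF female 2, against 483.1 in the next GF library and 419.5 in the lowest, so the gap took 0.729 of the range. Socs3 had 93.02 normalized reads in CV male 2, against 50.88 in the next CV library and 27.54 in the lowest, with a gap of 0.644 of the range. Neither gene was called in females, in males or over both sexes, with or without that library.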

How the results depend on the processing

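Counts of members called are given first. Shares of all tested genes called are in brackets. In females (3 as reported, 55.8%) 7 were called when scaled to all reads (59%). The count was 0 with the log2 mitochondrial ribosomal RNA share as covariate (0.0255%) and 5 with the length and GC trend removed (49.8%). In males (0 as reported, 29.5%) 1 was called when scaled to all reads (30.7%). The count was 2 when scaled to reads outside the abundant loci (26.5%) and 2 with the length and GC trend removed (24.6%). Leaving out single libraries gave 0 to 2 calls in males, with 2 without GF male 2 (31.2%), 1 without GF female 3 (31.3%) and 1 without CV male 2 (27.6%). Over both sexes (3 as reported, 61.1%) these counts were 6 scaled to all reads (64%) and 5 scaled to reads outside the abundant loci (59.5%). They were 0 with the covariate (1.18%) and 7 without the trend (56.1%). For the sex difference of the change, leaving out single libraries gave 0 to 1 calls, with 1 member, Nfkbiz, among 291 genes without CV male 1. With the replicate block the counts were 3, 0, 3, 0 and 0 for females, males, both sexes, their difference and males against females. The shares of all genes called were 56.3, 29.4, 61.3, 0 and 1.22% in the same order. For CV males against CV females all 3 same-numbered pairs correlated above 0.1 (0.118 to 0.193), whereas the other 5 pairs of groups did not all do so (-0.228 to 0.403), and the labels name no litter or batch that a number marks. The block changed no member's call, and called 144 genes between males and females against 137 without it. The cause of these shifts was not tested.

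Signs turned as follows, on the log2 scale. Scaled to all reads, the change was 0.044 for Il6ra, 0.79 for Il6st and 0.36 for Socs3 in females, 0.0078 for Il6ra and 0.028 for Cebpb in males, and 0.026 for Il6ra, 0.45 for Socs3, 0.21 for Cebpd and 0.40 for Nfkbia over both sexes. Scaled to reads outside the abundant loci it was -0.092 for Stat3, -0.046 for Cebpb, -0.58 for Cebpd, -0.54 for Nfkbia and -0.14 for Tnfaip3 in females, -0.059 for Il6st, -0.17 for Stat3 and -0.054 for Socs3 in males, and -0.35 for Il6st, -0.13 for Stat3 and -0.32 for Cebpb over both sexes. With the covariate it was 0.30 for Il6st, -0.42 for Stat3 and 0.54 for Socs3 in females, -0.31 for Stat3 in males, and -0.37 for Stat3, 0.61 for Socs3, -0.057 for Cebpb and 0.057 for Nfkbia over both sexes. Without the length and GC trend it was 0.81 for Il6st, -0.30 for Cebpd and -0.72 for Nfkbia in females, 0.029 for Il6ra in males and -0.12 for Cebpb over both sexes. In females, Il6st was 0.10 with TMM factors and 0.088 in edgeR without a filter, and Cebpd was -0.14 in edgeR, -0.10 in DESeq2 and -0.11 in edgeR without CV male 3. Leaving out single libraries gave ranges of -0.16 to 0.16 for Il6st and -0.43 to 0.42 for Cebpd in females, -0.10 to 0.29 for Stat3 and -0.12 to 0.53 for Socs3 in males, and -0.38 to 0.12 for Socs3 and -0.054 to 0.27 for Cebpb over both sexes.

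Over both sexes the call of Nfkbiz and that of Bcl3 were each lost in 1 of 26 alternatives, the covariate, and that of Il6ra in 13. Leaving out GF male 1, GF male 3, GF female 1, GF female 3, CV male 2, CV male 3 or CV female 1 each ended the call of Il6ra, with changes from -0.52 to -0.45. Socs3 and Tnfaip3 were not tested at a mean of at least 50. Depth limits Tnfaip3 and Socs3 most, with as few as 4 and 7 reads in a library.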
